A study of Mus musculus with 22 samples.

Results

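The 10 genes described here encode the alpha subunits of the Gq class of G proteins (Gnaq, Gna11), regulators of G protein signaling (Rgs2, Rgs3, Rgs4, Rgs5), receptor kinases (Grk5, Grk6) and arrestins (Arrb1, Arrb2). They were taken by symbol, for their known role in starting and stopping the signal of Gq-coupled receptors, from the 23453 gene symbols of the count table. Reads fell on 9 of the 10 genes. Those 9 were each read in at least 5 cells, as were 12719 genes in all, and Rgs5 was read in none.

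Single astrocytes from primary cultures of C57BL/6 mouse cortex were imaged with the calcium dye Fluo-4 during acute EtOH, classed by the shape of the calcium signal, picked with a glass pipette and sequenced one by one. There were 6 S-type cells (a sustained signal), 6 T-type cells (a transient signal), 5 M-type cells (a mixed signal) and 5 NR cells (no response). All 22 cells, NR included, came from cultures of newborn pups and were given EtOH before picking. The cultures had been shaken, treated with cytosine arabinoside and kept without serum for the last day. ATP was applied at the end of each imaging experiment, and the study does not state whether that was before picking. No untreated cells enter the comparison, and the labels do not say which pup or culture each cell came from, so each type stands here as 1 sample of a few cells and no test was made.

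Gq proteins couple receptors, among them those for ATP, to phospholipase C beta, which makes inositol trisphosphate and so releases calcium from the endoplasmic reticulum. RGS proteins speed the hydrolysis of GTP on the alpha subunit and end the signal, with Rgs2 acting mainly on Gq. Receptor kinases phosphorylate active receptors, and arrestins then bind those receptors, uncouple them from the G protein and take them out of the membrane.

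The members covered the whole range from genes read deeply in every cell to a gene with no read, and the sequences at their start sites differed too. The starts of 4 members are shown because they span that range. Gnaq and Rgs2 were read in 22 of 22 cells, Rgs4 in 8 and Rgs5 in 0, and Rgs4 and Rgs5 lie close together on chromosome 1. Each run is 300 bases of GRCm38.p6 from RefSeq, 5′ to 3′ on the strand of the gene, with every CG in capitals. The Gnaq run ends before the gene start of 16132831 given below, while the runs of Rgs2, Rgs4 and Rgs5 hold theirs.
Gnaq, chr19:16132434-16132733, plus strand: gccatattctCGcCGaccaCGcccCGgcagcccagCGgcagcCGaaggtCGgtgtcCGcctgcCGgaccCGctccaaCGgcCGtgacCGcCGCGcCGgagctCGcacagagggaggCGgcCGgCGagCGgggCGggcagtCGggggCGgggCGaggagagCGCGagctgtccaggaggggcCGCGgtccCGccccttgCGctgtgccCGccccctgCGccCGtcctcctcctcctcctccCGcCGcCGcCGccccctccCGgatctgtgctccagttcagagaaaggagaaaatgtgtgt
Rgs2, chr1:144004100-144004399, minus strand: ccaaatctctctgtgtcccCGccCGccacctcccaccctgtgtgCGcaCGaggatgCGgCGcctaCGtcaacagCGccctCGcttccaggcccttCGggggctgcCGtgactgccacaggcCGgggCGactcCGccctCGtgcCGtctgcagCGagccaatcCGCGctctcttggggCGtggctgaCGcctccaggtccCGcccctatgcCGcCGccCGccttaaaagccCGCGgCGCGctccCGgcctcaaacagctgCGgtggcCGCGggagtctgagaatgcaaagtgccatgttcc
Rgs4, chr1:169747593-169747892, minus strand: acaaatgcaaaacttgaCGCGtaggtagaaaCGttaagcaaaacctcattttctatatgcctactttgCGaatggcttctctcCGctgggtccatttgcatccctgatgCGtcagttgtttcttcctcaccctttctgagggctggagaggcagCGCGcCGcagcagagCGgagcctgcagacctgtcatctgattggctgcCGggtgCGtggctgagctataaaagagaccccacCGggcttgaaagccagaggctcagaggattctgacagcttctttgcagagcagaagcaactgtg
Rgs5, chr1:169655251-169655550, plus strand: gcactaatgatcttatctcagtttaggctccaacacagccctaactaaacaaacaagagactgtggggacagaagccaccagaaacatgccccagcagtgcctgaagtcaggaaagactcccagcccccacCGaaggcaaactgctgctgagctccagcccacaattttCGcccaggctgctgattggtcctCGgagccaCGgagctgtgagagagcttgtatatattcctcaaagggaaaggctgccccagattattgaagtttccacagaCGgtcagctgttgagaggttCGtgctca

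CG, which reads the same on both strands, occurred 39 times in the Gnaq window and 33 times in the Rgs2 window. Of all 32851 promoter windows of the same length, 4.45% held at least as many as Gnaq and 8.56% at least as many as Rgs2. The Rgs4 window held 13 and the Rgs5 window 6, counts that 37.9% and 56.4% of windows reached. Among the other members, the count was 48 in Gna11, 19 in Grk5, 19 or 37 in Grk6 and 4 or 9 in Rgs3, depending on the start site. Over the 16404 genes with a window, the median count was 24 for genes read in all 22 cells, 17 for genes read in 1 to 21 cells and 3 for genes without a read. Windows were found for 8 of the 10 members.

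The total count ran from 2937786 to 22131076 per cell, and from 6319 to 13070 genes were read. Cells of the same type came apart most in the T-type, where J162_16 had the fewest genes and J163_18 the smallest total. These 2 cells had size factors of 0.2757 and 0.1833, against 0.5482 or more elsewhere, so a normalized read count (the count divided by the size factor of the cell) is larger in them for the same number of reads. T-type results that turned on either cell are therefore also given without it. All 10 astrocyte markers examined were read in at least 16 cells, led by Slc1a3, a glutamate transporter, the transcription factor Sox9, and Glul, the glutamine synthetase. A level is the mean normalized count over the cells of a type. Of these 10 markers, 2 had a level at least 2-fold higher in the T-type than in NR and 4 lower. Of all genes, 28.4% and 32.8% did. Without J162_16 and J163_18 it was 0 and 7, beside 24% and 36.4%. Against the S-type it was 1 and 3 (25.7% and 32.5%), or 1 and 6 without those cells (21.7% and 36.3%). Against NR, the S-type had 5 lower (22.5%) and the M-type 4 (28.1%), with 0 higher. Intervals on ratios are 95% exact binomial intervals of the summed reads of the 2 types, moved to center on the ratio of levels. They cover counting error only, since reads carried no molecular identifiers, and do not weight cells by size factor.

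**Figure D1:**
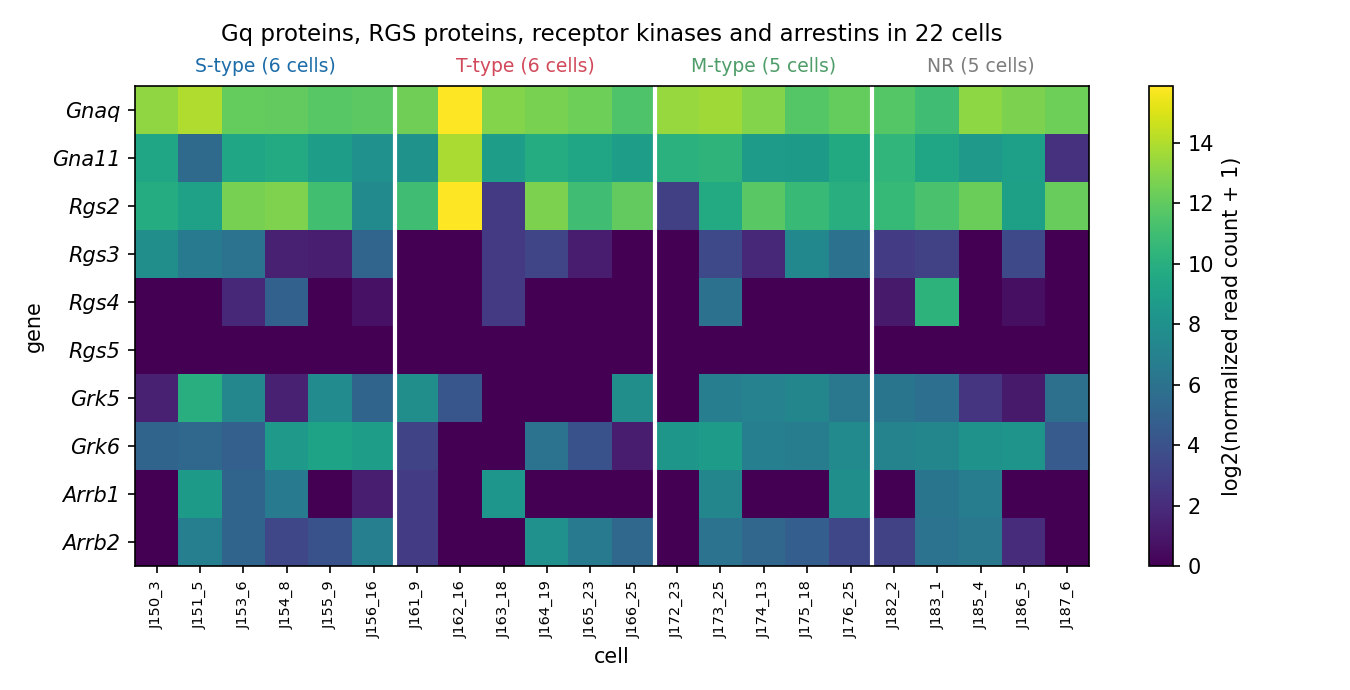
Color map of the 10 genes (rows) in the 22 cells (columns, grouped by response type), on the scale log2(normalized read count + 1). Gnaq, Gna11 and Rgs2 were read in every cell, Rgs5 in none, and Rgs4, Arrb1 and Arrb2 had reads in some cells of each type and none in others.

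Per kilobase of exon, the order of the members by their median over the 22 cells was led by Gnaq at 887 normalized counts per kb and Rgs2 at 565.1, followed by Gna11 at 141. Grk6 came next at 25.78 per kb, with Grk5 at 8.013 and Arrb2 at 7.178. Rgs3 stood at 0.5335, and the medians of Rgs4, Arrb1 and Rgs5 were 0. Neighbors in this order changed places between cells. Gnaq exceeded Rgs2 in 14 of 22 cells, Rgs2 exceeded Gna11 in 18, Gna11 exceeded Grk6 in 19, Grk6 exceeded Grk5 in 15, and Grk5 exceeded Arrb2 in 12.

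Gnaq (chromosome 19, 16132831 to 16387463, GRCm38, plus strand), the alpha subunit that gives the class its name, was the most read member, with 193160 reads over the 22 cells. Its normalized count was 3388, 3683, 4253, 4447, 9624 and 16415 in the S-type cells and 2917, 5370, 5602, 6700, 7827 and 59121 in the T-type cells. In the M-type it was 3322, 4471, 7946, 10796 and 12382, and in NR 2028, 3264, 5203, 6903 and 9172. Apart from the 1 T-type cell at the top, J162_16, the 4 types covered the same range. That cell held 67.5% of the T-type level.

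The T-type level of Gnaq, 14590, was 2.09-fold the S-type level of 6968 (log2 1.07, interval 1.05 to 1.09) and 2.75-fold the NR level of 5314 (log2 1.46). Without J162_16 these log2 ratios were -0.29 and 0.10, and without J163_18 as well they were -0.44 and -0.05. The S-type and the M-type differed from NR by 0.39 and 0.55 on the log2 scale, each less than 2-fold, and the 3 comparisons with NR share the same 5 cells.

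Gna11 (chromosome 10, 81528724 to 81545190, minus strand), the close relative of Gnaq, had 22539 reads and was also present in every cell. Its normalized count was 43.36, 261.2, 482.4, 672.9, 674.3 and 848.8 in the S-type and 271.7, 473.3, 480.0, 653.9, 912.1 and 15025 in the T-type. It was 405.7, 437.4, 791.0, 1123 and 1261 in the M-type, and 3.708, 376.8, 501.2, 664.2 and 1425 in NR. The types overlapped, with J162_16 far above the rest and the NR cell J187_6 far below. The log2 ratio of T-type to S-type was 2.58 with all cells and 0.17 without J162_16. Against NR it was 2.32 with and -0.09 without that cell. In CPM (the share of the reads of a cell), which uses no size factor, J162_16 was still the highest cell for Gna11, at 330 against 118 in the next cell, and for Gnaq, at 1298 against 1063.

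Gnaq outnumbered Gna11 in 22 of 22 cells. Its share of the reads of both genes was 69.6% to 99.9% with a median of 89.9%, and per kilobase of exon 60.3% to 99.9% with a median of 85.5%. By type the median share of reads was 90.5% in the S-type, 88.6% in the T-type, 90.6% in the M-type and 93.2% in NR. The share in J162_16, 79.7%, was the lowest of the T-type. The transcripts of these genes had no stretch of 75 bases in common.

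Among the 11 other G alpha genes, 9 were read in at least 5 cells. The most read were Gnas, the stimulatory subunit, Gna13 and Gnao1. Gnas had a level of 11815 in the S-type, 58198 in the T-type, 9755 in the M-type and 14738 in NR, and its highest cell was J164_19. In the T-type against the S-type 3 of the 9 were at least 2-fold higher and 1 lower (all genes, 25.7% and 32.5%), and against NR 4 and 1 (28.4% and 32.8%). Gna14 and Gna15, the remaining Gq-class subunits, were looked up after the values were seen. Gna14 was read in 16 cells at a mean level of 385.5, with a T-type level of 636.3 that was 80.98 without J165_23, and Gna15 had 9 reads in 2 cells. Of the 16 G beta and gamma genes 14 were read, with Gng12, Gng10 and Gnb1 highest. Their median log2 ratio was 0.59 in the T-type against the S-type and 0.23 against NR, and 0.67 and -0.08 without J162_16 and J163_18.

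**Figure D2:**
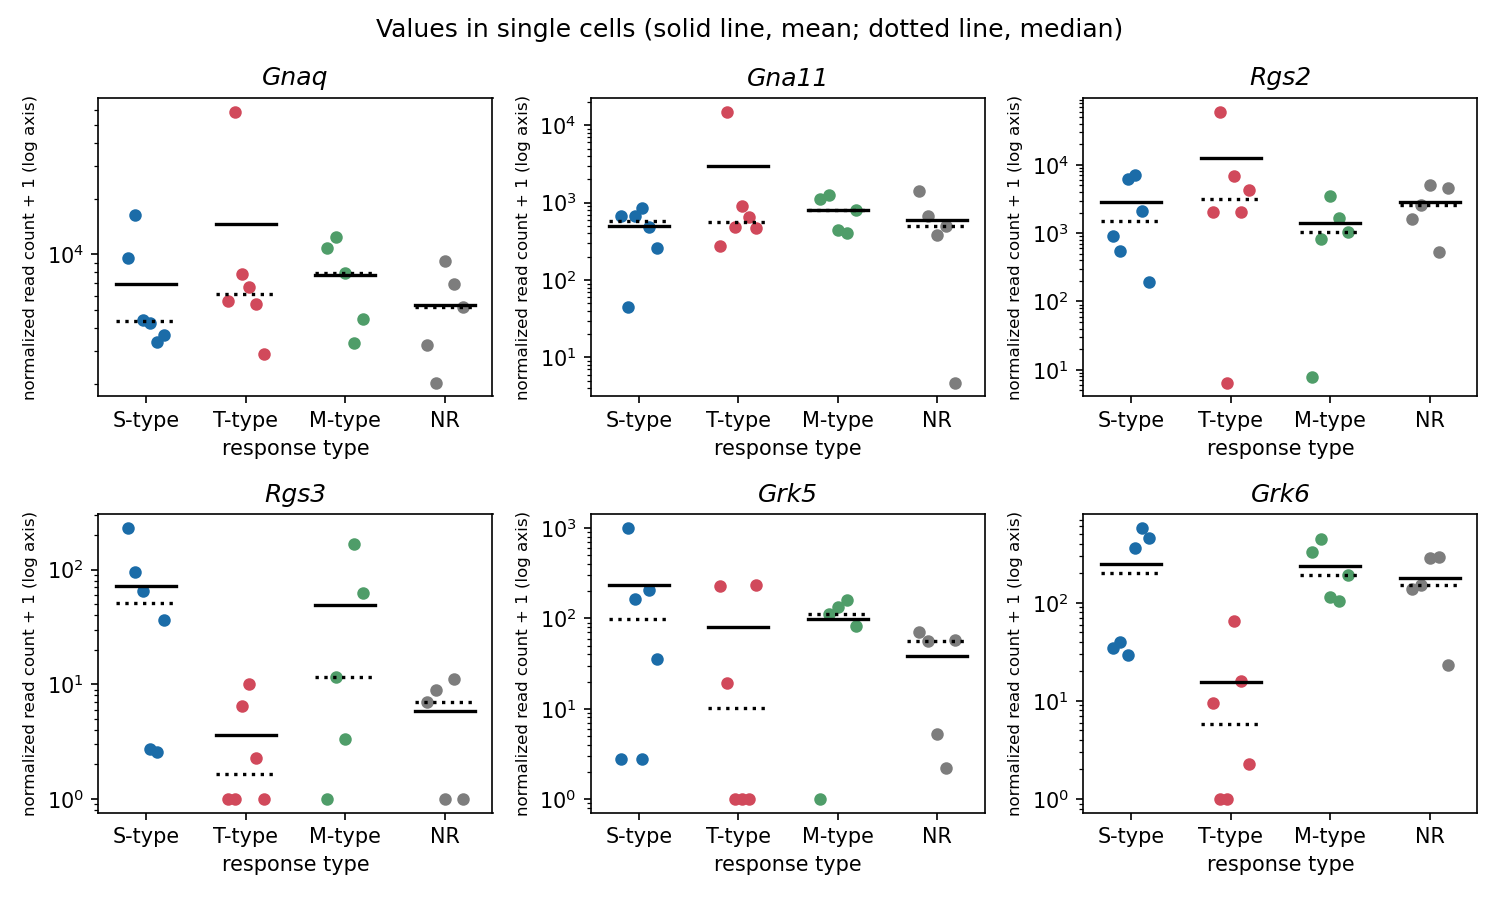
Normalized read count plus 1 on a log axis for 6 of the genes in each cell, by response type, with the mean (solid line) and the median (dotted line) of each type. For Gnaq, Gna11 and Rgs2 the T-type mean lies above the T-type median, mostly because of J162_16. For Grk6 the T-type cells, at 0 to 63.84, lie below all M-type cells, at 102.7 to 442.5.

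Rgs2 (chromosome 1, 143999338 to 144004161, minus strand), the RGS protein most closely tied to Gq, had 89160 reads and was read in every cell. Its normalized count was 189.2, 552.8, 906.4, 2134, 6189 and 7186 in the S-type and 5.455, 2049, 2050, 4332, 6915 and 60169 in the T-type. It was 6.882, 831.8, 1051, 1692 and 3536 in the M-type and 519.7, 1612, 2548, 4615 and 5100 in NR. The types overlapped, and the T-type held both the highest cell, J162_16, and the lowest, J163_18, which had a single read. The M-type cell J172_23, with the second lowest value, had one of the larger libraries.

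With all cells the log2 ratio of Rgs2 in the T-type was 2.14 to the S-type (level 12587 against 2859) and 2.13 to NR (2879). Without J162_16 it was 0.10 and 0.09. The M-type level, 1424, was lower than that of NR by 2.02-fold (log2 -1.02), and the log2 ratio ran from -1.68 to -0.70 as single cells were left out, the latter without J172_23. The S-type and NR were level, at a log2 ratio of -0.01.

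Rgs2 is an early response gene in many cells, so the immediate early genes are given beside it. All 11 on the list were read, led by Egr1, Jun and Fos. Their summed normalized count was 62236 in J162_16, 10342 in J163_18 and 3015 in J172_23, and reached 16831 outside the T-type. In CPM the sum in J162_16, 1366, was below that of J156_16, 1389, and J176_25, 1369. Over the 22 cells the rank correlation of Rgs2 with this sum was -0.27, a weak value. The part of the early response in the level of Rgs2 was not tested.

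Rgs3 (chromosome 4, 62559847 to 62704001, plus strand), which acts on Gq and Gi subunits, was sparse, with reads in 16 cells. Its normalized count in the S-type was 1.569, 1.752, 35.62, 63.96, 93.22 and 229.9, so that all 6 cells had reads. In the T-type it was 0, 0, 0, 1.296, 5.455 and 9.121, from 8 reads in all. In the M-type it was 0, 2.344, 10.50, 61.35 and 167.0, and in NR 0, 0, 6.071, 7.941 and 10.17. The high cells, above 30, belonged to the S-type and the M-type, while both types also had cells as low as those of the T-type and NR.

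The T-type level of Rgs3, 2.645, was 26.8-fold below the S-type level of 71.01 (log2 -4.75, interval -5.97 to -3.76), and the ratio stayed between -5.72 and -3.89 as each cell was left out. The S-type was 14.7-fold above NR, whose level was 4.836 (log2 3.88, interval 3.42 to 4.37, 3.02 to 4.34 on leaving out cells). The M-type was 9.98-fold above NR (log2 3.32), or 1.94 without J175_18. The median over cells was 49.79 in the S-type, 0.6481 in the T-type, 10.5 in the M-type and 6.071 in NR. By medians the M-type thus lay less than 2-fold above NR. T-type and NR differed by -0.87 with an interval of -2.17 to 0.24. In all, 10.2% of the 75-base stretches of the Rgs3 transcripts are shared with the gene model Gm5763, so unique alignment may have removed part of its reads in every cell.

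Rgs4 (chromosome 1, 169741477 to 169747642, minus strand), known from neurons as a regulator of Gq and Gi signals, came almost entirely from 1 cell. The NR cell J183_1 had a normalized count of 1246, and 92.6% of the summed level of the 22 cells. The other NR cells had 0, 0, 0.5981 and 1.214. The S-type had 0, 0, 0, 0.7421, 2.436 and 29.78, the T-type 5.455 in J163_18, from 1 read, and 0 in the other cells, and the M-type 59.52 in J173_25 and 0 in the other cells. At least 5 reads were found in 3 cells of the 22.

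The ratios of Rgs4 between types followed that cell. The log2 ratio to NR was -5.51 in the S-type and -4.39 in the M-type, and without J183_1 it was 3.60 and 4.72. For the T-type it was -8.10, and without J183_1 neither type had more than 3 reads, so no ratio was formed. T-type against S-type gave -2.60 from 1 read against 39, with an interval of -7.94 to -0.03, and 0.52 without J154_8. The 7 neuron markers, led by Stmn2, summed to 2103 in J183_1, within the NR range of 1112 to 10005. That cell had reads of 6 of the 7 and held 93.5% of the summed level of Snap25. Snap25, a protein of synaptic vesicle release, was looked up after its values were seen. The other neuron markers were each highest in another cell, as with Rbfox3 (98.1% in J186_5) and Syt1 (96.1% in J162_16). In J183_1 the 10 microglia markers summed to 470.8, within the NR range of 7.91 to 604. J183_1 had the most genes of any cell, 13070, and the part of these measures in its Rgs4 was not tested.

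Rgs5 (chromosome 1, 169655501 to 169695813, plus strand), a marker of pericytes and other mural cells, had 0 reads among 354918409 in the 22 cells. The exact 95% upper limit on the share of cells with a read was 15.4%. Of 11 mural cell markers 9 were read, led by Acta2 and Tagln, genes of the contractile cytoskeleton, and Pdgfrb, while Vtn and Myh11 were, like Rgs5, without a read. The summed level of the list had a median of 20588 in the S-type, 18354 in the T-type, 19194 in the M-type and 6093 in NR. Nearly all of that sum was Acta2 and Tagln. Pdgfrb, a receptor of pericytes, was highest in NR, with a level of 439.9 against 86.23 in the S-type, 22.52 in the T-type and 88.76 in the M-type, and was 192.2 in NR without J187_6. Kcnj8 was read only in NR, in 2 cells. Notch3 and Cspg4 were instead highest in the S-type, at 164.4 and 296.8 against 104.4 and 85.85 in NR.

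Of 18 other RGS genes 17 were in the table, 16 were read and 11 were read in at least 5 cells. Rgs17, Rgs19 and Rgs20, of the RZ group that acts mainly on Gz and Gi, had the highest mean counts of the list. Rgs17 had a level of 801.1 in the S-type, 51.48 in the T-type, 366.5 in the M-type and 903.6 in NR. Without its top cell in each of these types the level was 302.9 in the S-type (J155_9), 33.14 in the T-type (J165_23) and 183.8 in NR (J186_5). Rgs19 had 110.3, 706, 126.4 and 117.3 in the same order of types, and the T-type level was 177.7 without J162_16. Among the 11 genes, 3 were at least 2-fold higher and 5 lower in the T-type against the S-type, beside 25.7% and 32.5% of all genes. Without J162_16 and J163_18 it was 1 and 7, beside 21.7% and 36.3%. Against NR 3 were higher and 5 lower in the T-type (28.4% and 32.8%), or 1 and 4 without those cells (24% and 36.4%). The S-type had 4 higher and 3 lower than NR (25.1% and 22.5%), and the M-type 1 and 6 (19.8% and 28.1%). No gene of the list separated the cells of any compared types.

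Grk6 (chromosome 13, 55445072 to 55460927, plus strand), a receptor kinase bound to the membrane, was low in the T-type against each of the other types. Its normalized count in the T-type was 0, 0, 1.281, 8.445, 14.91 and 63.84, from 66 reads in all. It was 28.02, 33.73, 39.02, 361.8, 458.6 and 579.7 in the S-type, 102.7, 113.9, 190.5, 330.9 and 442.5 in the M-type, and 22.25, 136.0, 152.0, 281.9 and 294.3 in NR. Of the 6 T-type cells, 5 were below every cell of the other types. The remaining one, J164_19, was above 3 S-type cells and 1 NR cell and below all M-type cells.

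The T-type level of Grk6, 14.75, was 17-fold below the S-type level of 250.1 (log2 -4.08, interval -4.46 to -3.73) and 12-fold below the NR level of 177.3 (log2 -3.59, interval -3.97 to -3.23). Leaving out each cell moved these log2 ratios between -5.67 and -3.64 and between -5.17 and -3.32. Without both J162_16 and J163_18, where Grk6 had no read, they were -3.50 and -3.00. The S-type and the M-type exceeded NR by 0.50 and 0.41, less than 2-fold.

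Against the M-type, a comparison added after the values were seen, the T-type was 16-fold lower in Grk6 (log2 -4.0, interval -4.38 to -3.65), or at -3.42 without J162_16 and J163_18. The cells of these types did not overlap for Grk6, as was the case for 0.753% of the 12482 genes compared. In CPM the highest T-type cell stood at 5.33 and the lowest M-type cell at 10. The cells were also apart once all libraries had been thinned to 2937786 reads.

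The number of genes read in a cell moved with Grk6. It was 6319 to 10614 in the T-type, 9768 to 11914 in the S-type, 9272 to 12188 in the M-type and 9696 to 13070 in NR. The rank correlation of Grk6 with this number was 0.61 over the 22 cells, which share it as a measure of their libraries, and 0.24 over the 16 cells that are not T-type. Of the genes read in at least 11 cells, 4.32% had a correlation over the 22 cells at least as high as the 0.61 of Grk6. The part of library complexity in the T-type value of Grk6 was not tested.

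**Figure D3:**
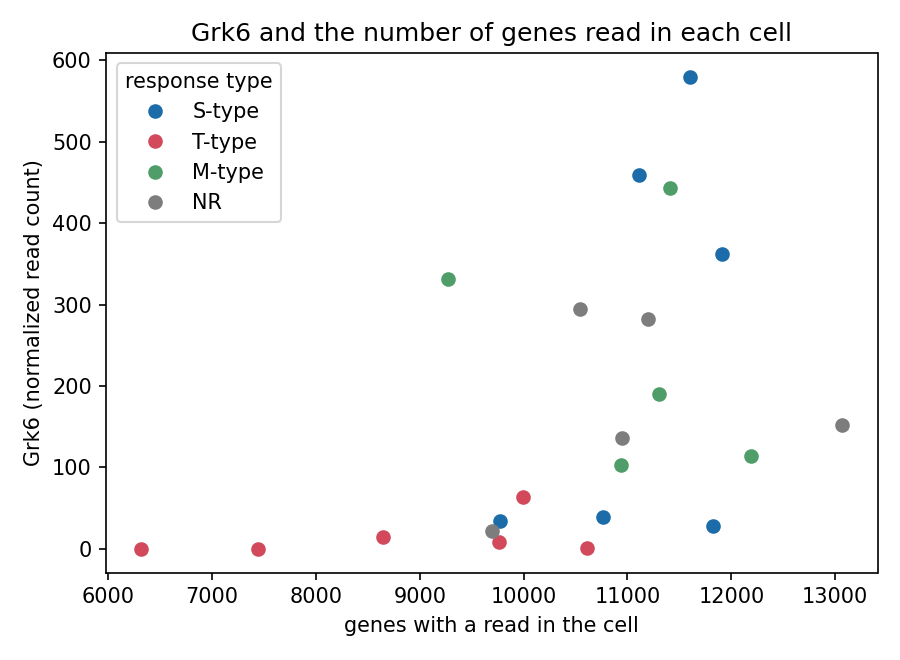
Grk6 in normalized read counts (y axis) against the number of genes with a read (x axis) in each of the 22 cells, colored by response type. Of the 6 T-type cells, which had 6319 to 10614 genes, 5 lie below all cells of the other types.

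Grk5 (chromosome 19, 60889749 to 61095968, plus strand), the kinase of the same subfamily that calcium-bound calmodulin holds back, did not follow Grk6. Its normalized count was 1.752, 1.775, 34.14, 163.2, 203.2 and 1009 in the S-type and 0, 0, 0, 18.13, 229.4 and 232.5 in the T-type. It was 0, 82.52, 112.0, 132.2 and 158.2 in the M-type and 1.196, 4.315, 55.59, 57.48 and 69.81 in NR. The T-type split into 3 cells without a read, 1 low cell and 2 cells above all of NR, and the types overlapped throughout.

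J151_5 held 71.4% of the S-type level of Grk5. The log2 ratio of T-type to S-type was -1.56 with it and -0.01 without it. The S-type to NR ratio was 2.64 with it and 1.10 without it. The T-type to NR ratio, 1.09, fell to 0.39 without J166_25. The M-type to NR ratio was 1.36, and stayed between 1.05 and 1.71. J151_5 also had the highest summed level of the 7 neuron markers, 32066, of which Stmn2 made up 31627, and it was the S-type cell with the most Arrb1. The part of this in its Grk5 was not tested.

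The balance between the kinases changed from cell to cell. In the 21 cells with more than 3 reads of the pair, the share of Grk5 had a median of 26.8% and ran from 0% to 100%, and per kilobase of exon the median was 17.9%. The share of reads passed 50% in 8 cells, of which J174_13 and J175_18 were under 50% per kilobase, at 40.9% and 47.8%. The median was 16.4% in the S-type, 30.2% in the M-type and 26.8% in NR. In the T-type, 3 cells lay at 96.4%, 99.5% and 100%, the last from 5 reads of Grk5, and 2 cells at 0%. A mixture of cells that held nearly only one kinase and cells that held nearly only the other was thus seen within a type.

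**Figure D4:**
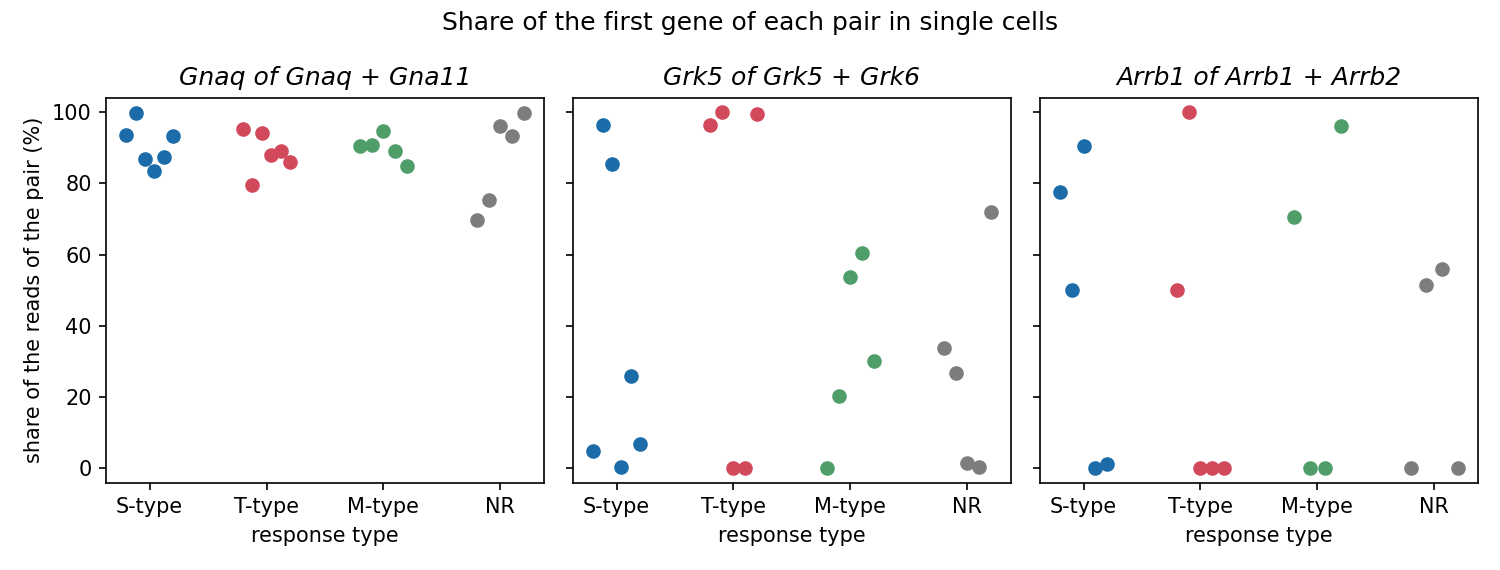
Share of reads (%) taken by Gnaq in the pair Gnaq and Gna11, by Grk5 in the pair Grk5 and Grk6, and by Arrb1 in the pair Arrb1 and Arrb2, 1 point per cell with more than 3 reads of the pair, by response type. Gnaq lay between 69.6% and 99.9% in all cells, while both other pairs spanned 0% to 100%.

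Of the 6 other receptor kinases and arrestins, 3 were read in at least 5 cells. Grk4 had a level of 254.7 in the S-type, 144.8 in the T-type, 412.9 in the M-type and 293.5 in NR, and Adrbk1, the ubiquitous kinase also called Grk2, had 41.1, 41.72, 28.24 and 125.9. Adrbk2, the related kinase Grk3, had 161.3, 198.5, 98.11 and 427.4. The T-type level of Adrbk2 was 20.66 without J165_23, and the M-type level of Grk4 was 113 without J176_25. All 3 were at least 2-fold lower in the T-type than in NR, as 32.8% of all genes were, and 1 of the 3, Adrbk1, was so without J162_16 and J163_18. Arr3, the cone arrestin, had no read.

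Arrb1 (chromosome 7, 99535466 to 99606771, plus strand), or beta-arrestin 1, was present in 10 cells. Its normalized count was 0, 0, 1.484, 34.11, 91.97 and 407.5 in the S-type and 0, 0, 0, 0, 5.63 and 327.3 in the T-type. It was 0, 0, 0, 155.4 and 234.6 in the M-type and 0, 0, 0, 70.33 and 105.7 in NR. Every type had cells without a read beside cells well above 0. J163_18, with 60 reads in the smallest library, made the T-type level. The log2 ratio of T-type to S-type was -0.68 with it and -6.31 without it, and to NR 0.66 with it and -4.97 without it. The S-type to NR ratio, 1.34, was -0.46 without J151_5, and the M-type to NR ratio, 1.15, was 0.14 without J176_25.

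Arrb2 (chromosome 11, 70432635 to 70440828, plus strand), or beta-arrestin 2, was read in 17 cells, at low values. It was 0, 9.635, 14.90, 34.11, 115.8 and 117.1 in the S-type and 0, 0, 5.63, 40.99, 90.73 and 266.3 in the T-type. It was 0, 9.505, 25.94, 37.04 and 64.42 in the M-type and 0, 2.990, 7.892, 66.36 and 82.70 in NR. The types shared one range, with J164_19 highest. The log2 ratio of T-type to NR, 1.07, was -0.22 without J164_19, and that of T-type to S-type, 0.47, was -0.82. S-type and M-type differed from NR by 0.60 and -0.22. Exons of Arrb2 overlap the microRNA gene Mir7115, which has no row in the table.

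In the 18 cells with more than 3 reads of both arrestins together, the share of Arrb1 had a median of 25.6%, or 10.3% per kilobase of exon. The share of reads was 0% in 8 cells, exactly 50% in 2 and over 50% in 7. Per kilobase of exon the cells at 50% were at 20.3%. On that scale only J154_8, J163_18 and J176_25 were over 50%, at 70.8%, 100% and 86.3%. The cells at 0% came from all 4 types, and in the T-type 3 of the 5 cells were at 0% and J163_18 was at 100%.

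Further down the pathway, 11 of 12 genes for effectors and partners of Gq were read in at least 5 cells. Itpr1, the receptor for inositol trisphosphate, had a level of 2182 in the S-type, 654 in the T-type, 1526 in the M-type and 2808 in NR. Ric8, the chaperone of Gq subunits, had 1569, 1816, 1604 and 1938, and Trio, an exchange factor for small GTPases, had 343.8, 460.8, 1299 and 547. In the T-type against the S-type 0 of the 11 genes were at least 2-fold higher and 7 lower, beside 25.7% and 32.5% of all genes. Against NR 0 of 10 were higher and 5 lower, beside 28.4% and 32.8%. The median log2 ratio of the list was -1.33 and -1.35, against -0.085 and -0.066 over all genes. Without J162_16 and J163_18 it was -2.35 and -3.33, against -0.28 and -0.27 over all genes. Without J163_18 alone the T-type level of Itpr1 was 229.5, that of Ric8 1059 and that of Trio 254. The other responding types also had genes of the list below NR. Of the 11 genes, 2 were at least 2-fold higher and 4 lower in the S-type than in NR, beside 25.1% and 22.5% of all genes. In the M-type it was 2 and 5, beside 19.8% and 28.1%. The median log2 ratio to NR was -0.67 in the S-type and -0.88 in the M-type, against 0.027 and -0.20 over all genes.

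Counted over the members, 9 of which had a ratio in each comparison, calls at 2-fold are given beside the share of all genes past the same limit, since a large part of all genes passed it. In the T-type against the S-type 3 members were at least 2-fold higher (Gnaq, Gna11 and Rgs2), where 25.7% of all genes were, and 4 were lower (Rgs3, Rgs4, Grk5 and Grk6), where 32.5% were. Against NR the T-type had 5 higher (Gnaq, Gna11, Rgs2, Grk5 and Arrb2) beside 28.4% of all genes, and 2 lower (Rgs4 and Grk6) beside 32.8%. With both T-type cells of low size factor left out, the calls were other ones. Against the S-type Gnaq (log2 -0.44), Gna11 (0.22) and Rgs2 (0.42) were no longer called, Arrb2 was higher (1.05) and Arrb1 lower (-5.99), so that 1 member was higher and 5 were lower, beside 21.7% and 36.3% of all genes. Against NR 2 were higher (Grk5 and Arrb2) and 3 lower (Rgs4, Grk6 and Arrb1, the last at -4.64), beside 24% and 36.4%.

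The S-type against NR had 3 members higher (Rgs3, Grk5 and Arrb1) beside 25.1% of all genes, and 1 lower (Rgs4) beside 22.5%. In the M-type against NR the same 3 were higher, beside 19.8%, and Rgs2 and Rgs4 were lower, beside 28.1%. In none of these 4 comparisons did all cells of one type lie above all cells of the other for any of the 9 members. Over all genes this occurred for 0.783% in the T-type against the S-type, 1.01% in the T-type against NR, 0.412% in the S-type against NR and 0.602% in the M-type against NR. Rgs3 and Grk6 were among the genes that the study itself selected on these cells, so their values here are not independent evidence.

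**Figure D5:**
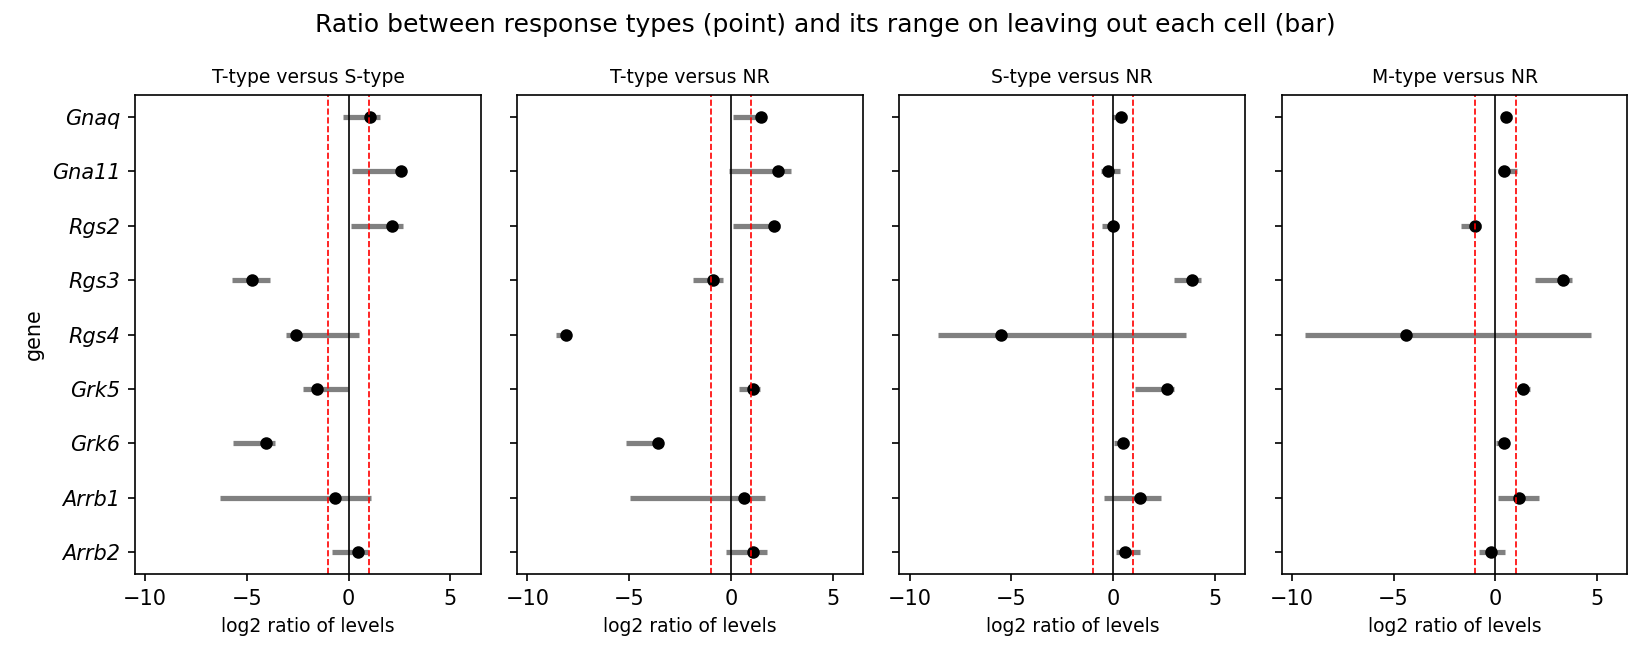
Log2 ratio of levels (x axis) of the 9 genes with reads in each of the 4 comparisons (point), with its range as each cell was left out in turn (bar) and the 2-fold limits (dashed lines). Grk6 in the T-type and Rgs3 in the S-type and the M-type kept their side of the 2-fold limit, while the bars of Gnaq, Gna11 and Rgs2 in the T-type reach 0.17 or lower, and Rgs4 crosses 0 in 3 comparisons.

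The members did not rise and fall together from cell to cell. Among the 7 members read in at least 11 cells there were 21 pairs, with rank correlations of -0.37 to 0.23 over the 22 cells, all weak. The pair Gnaq and Gna11 stood at 0.12. The highest were Arrb2 with Grk6 and with Rgs3, both at 0.23, and the lowest were Gna11 with Grk5 and Rgs2 with Rgs3, both at -0.37.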

How the data were processed

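RNA of 22 single cells was amplified and sequenced by the authors, who used STAR on trimmed reads and GRCm38, then counted uniquely aligned exonic reads per gene with VERSE, a form of HTSeq. Their versions and the strand setting are not given in the sources used here. The deposited values are raw counts. Size factors were medians of ratios over 3670 genes read in every cell. For ratios, a type without reads was given 3 reads. Ratios were formed where at least 1 type had more than 3 reads, and background shares used genes read in at least 5 cells. Cells were grouped by their labels, which matched the deposited response type in 22 of 22. Positions and exon lengths came from GENCODE on GRCm38. Tools were Python 3.11.15, NumPy 2.4.6, pandas 2.3.3, SciPy 1.17.1, matplotlib 3.10.9, and edgeR 4.0.16 in R 4.3.3 for TMM factors. The ratio script was tested on simulated data. With 1 sample per type no p-value was computed.

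Alternatives were TMM factors, CPM, thinning to 2937786 reads, a pseudocount of 1, the median over cells, other filters and leaving out each cell. The members and lists were chosen with earlier results of these data known. Named were all members and, of each list, the 3 genes with the highest mean level; other genes were named after their values were seen, as were the comparison of T-type with M-type and the count of CG. List genes of mean level 10 or more that separated the cells of 2 compared types would also have been named, and there was none. The result of 1 marker list is not reported here.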

Additional observations from a re-analysis of the deposited data

Results flagged for a closer look

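On the scale log2(normalized count + 1), in each type the gap between an extreme cell and its nearest neighbor was divided by the range of the type and set against the 95% value of Dixon's test. Of 36 combinations of member and type, 11 passed. Chance passes about 1 in 20 groups of normally distributed values, which read counts of single cells are not, so nothing is read from that number. Values are given as normalized counts.

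J162_16 stood above the other T-type cells for Gnaq at 59121 and Gna11 at 15025. In the same type J163_18 stood below the others for Rgs2 at 5.455 and above them for Arrb1 at 327.3 and for Rgs4 at 5.455, the last from 1 read. In the M-type J172_23 was low for Rgs2 at 6.882 and for Grk5 at 0, and J173_25 was high for Rgs4 at 59.52. J187_6 was low among NR cells for Gna11 at 3.708, J183_1 was high among them for Rgs4 at 1246, and J154_8 was high among S-type cells for Rgs4 at 29.78. The 4 passes of Rgs4 come from a gene at or near 0 in most cells, where 1 cell with reads is enough. Leaving out J162_16 moved the T-type to S-type log2 ratio of Gnaq from 1.07 to -0.29 and that of Gna11 from 2.58 to 0.17.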

How the results depend on the processing

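Of the 23 ratios at or past 2-fold, those that stayed so numbered 20 with TMM factors, 21 after thinning, 23 with a pseudocount of 1, 16 with pooled CPM, 14 with mean CPM and 10 with the median over cells. For T-type against NR the members past 2-fold went from 7 to 3 with mean CPM and 4 with the median over cells, for M-type against NR from 5 to 2 with the median. Leaving out single cells gave 4 to 8 for T-type against S-type (7 with all cells), 4 to 9 for T-type against NR and 3 to 5 for M-type against NR. The low ends were reached without J162_16 for the T-type and without J173_25, J176_25 or J187_6 for the M-type. The T-type to S-type log2 ratio of Gnaq reversed to -0.08 with pooled CPM, that of Gna11 to -0.03 with the median, and the T-type to NR ratio of Grk5 to -2.49 with the median.

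Leaving out cells, the ranges that crossed 0 from past 2-fold were, for T-type to S-type, -0.29 to 1.52 in Gnaq and -3.09 to 0.52 in Rgs4. For T-type to NR they were -0.09 to 2.94 in Gna11 and -0.22 to 1.80 in Arrb2. For S-type to NR they were -8.62 to 3.60 in Rgs4 and -0.46 to 2.34 in Arrb1, and for M-type to NR -9.37 to 4.72 in Rgs4. The cells concerned are named in the report, and the cause was not tested. The median log2 ratio of all genes moved with the scaling, for T-type to S-type from -0.085 to -0.56 with pooled CPM and -0.46 with mean CPM, and for T-type to NR from -0.066 to -0.54 and -0.46, so Gnaq at -0.08 still lay above it. The number of cells with a read fell, when at least 5 reads were asked for, from 16 to 12 for Rgs3, 8 to 3 for Rgs4 and 10 to 8 for Arrb1, which sets the limit for these sparse genes. No paired analysis was possible because the labels do not say which cells share a pup or culture.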

Other observations

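Markers of other cell types were summed in each cell as normalized counts. The 10 microglia markers, led by Cx3cr1, Ptprc and C1qa, had a median sum of 355.3 in NR, 36.61 in the T-type, 0.7002 in the M-type and 0.4439 in the S-type. All 7 of them that were read in at least 5 cells were at least 2-fold lower in the S-type and in the M-type than in NR, and 6 were lower in the T-type, beside 22.5%, 28.1% and 32.8% of all genes. In single NR cells the microglia sum ran from 7.91 to 604. Without the top NR cell of each gene, the NR level fell from 95.01 to 64.6 for Cx3cr1. It fell from 62.46 to 0.3736 for Ptprc and from 29.74 to 11.16 for C1qa. Olig1, a transcription factor of the oligodendrocyte lineage, had a level of 5492 in the S-type, 16819 in the T-type, 8352 in the M-type and 4126 in NR. Without J163_18 the T-type level was 9921, and without J176_25 the M-type level was 5384. Olig1 is a single gene, and the other markers of its list, not reported here, did not all follow that order of types. The 7 neuron markers, led by Stmn2, Map2 and Tubb3, had 3465 in the S-type, 3257 in the T-type, 3101 in the M-type and 2103 in NR. The 5 fibroblast markers, led by Col1a2, Dcn and Col1a1, had 378, 1.236, 6.048 and 212.1 in the same order. Their highest sum in a single cell, 9466, was in the T-type cell J166_25 and came from Col1a2 alone. Dcn, Col1a1 and Col3a1 had no read in the T-type. The 5 endothelial markers, led by Flt1, Pecam1 and Tek, had 17.08, 0, 0 and 0.5981, and Cldn5 and Cdh5 had no read.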
